A study of Mus musculus with 2 samples.

Results

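The genes described here are the nuclear genes of the mitochondrial respiratory chain and of ATP synthase, in mouse bone marrow-derived macrophages (BMDMs). They were chosen by symbol, as the entries that begin with Nduf followed by a, b, c, s or v, with Uqcr, with Cox 4 to 8 followed by a, b or c, or with Atp5. Of 85 matching entries, *Atp5l-ps1*, marked as a pseudogene by its symbol, was dropped, which left 84 of the 37451 genes in the table. Expression was measured by RNA-Seq in 1 library of WT and 1 library of ΔM BMDMs. WT cells came from C57BL/6 mice. ΔM cells came from littermates, labelled C57BL/6 TTP fl/fl LysMCre, in which *Zfp36*, the gene of the RNA-binding protein tristetraprolin (TTP), is deleted by a Cre recombinase made from the lysozyme M locus, that is, in myeloid cells. In both groups the mice were 7 to 9 weeks old, the cells were grown with CSF-1 from L929 cells and labelled with 100 µM 4-thiouridine (4sU) for 16 h, and LPS was then given at 10 ng/ml for 6 h, as the protocol states, although the sample titles carry a 7 after LPS whose meaning is not given. Both libraries therefore come from labelled and stimulated cells, and unstimulated cells were not analysed here. Values are FPKM, in which fragments are scaled to exon length and to library size. With 1 library per genotype there is no replicate check, no p-value, and no SD, and each value below stands for n = 1.

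Electrons from NADH enter the respiratory chain at complex I, pass through ubiquinone to complex III and through cytochrome c to complex IV, which reduces oxygen. The proton gradient built on the way drives ATP synthase. These complexes are mosaics: a few of their subunits are encoded in mitochondrial DNA, and the others are nuclear genes whose proteins are imported. In macrophages, LPS is known to shift energy metabolism from oxidative phosphorylation towards glycolysis, while TTP binds AU-rich stretches in the 3′ UTR of mRNAs and promotes their decay.

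The libraries carried the marks of their labels. *Zfp36* had 65.3 FPKM in WT against 16.7 in ΔM, a log2 ratio of -1.90 after 1 FPKM was added to both values, the scale used for each ratio below. The 8 macrophage markers of a fixed list were all above 2 FPKM in both libraries, with a median of 265 FPKM in WT against 264 in ΔM and a summed level of 4001 and 2864 FPKM. The most abundant was lysozyme *Lyz2*, whose locus carries the Cre, with 2481 FPKM in WT and 1356 in ΔM. The 6 LPS response genes were present too, with medians of 219 and 336 FPKM and *Il1b* highest, at 875 and 741 FPKM. Markers of other cells were at or near 0, and no list of them summed to more than 0.55 FPKM in WT or 0.48 FPKM in ΔM. The highest value among the markers of T cells, B cells, neutrophils, dendritic cells, fibroblasts, erythroid cells and muscle was 0.41 FPKM, for *Camp* in ΔM. The T cell genes *Cd3e* and *Cd3g*, the neutrophil genes *Ly6g* and *Elane* and the muscle gene *Ckm* were listed at 0 in both libraries. The steps between low FPKMs gave a depth of about 36600000 fragments in WT and 32400000 in ΔM, with a mean fragment length of 198 nt in both.

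Most of the 84 genes were expressed, and their levels hardly differed between the genotypes. A mean of at least 1 FPKM was reached by 73 of them. Among these 73 the median level was 14.8 FPKM in WT against 15.1 in ΔM, compared with 6.34 and 6.27 FPKM over the 8078 protein-coding genes that reached the same mean. The members' median in WT exceeded the WT level of 71.3% of those protein-coding genes. Summed over all 84 genes the FPKMs were 2246 in WT and 2241 in ΔM. No member differed 2-fold, that is, 0 of 73, where 9.31% of all 10765 genes that averaged 1 FPKM or more and 2.51% of the protein-coding genes among them did so. With 0.1 FPKM added in place of 1, *Atp5sl* and *Ndufab1* did pass 2-fold, both lower in ΔM. The median log2 ratio was -0.01, near that of all tested genes (0.03) and that of protein-coding genes (-0.0015). In bulk RNA, a change in the share of cells that express a gene and a change of its RNA per cell cannot be told apart.

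**Figure D1:**
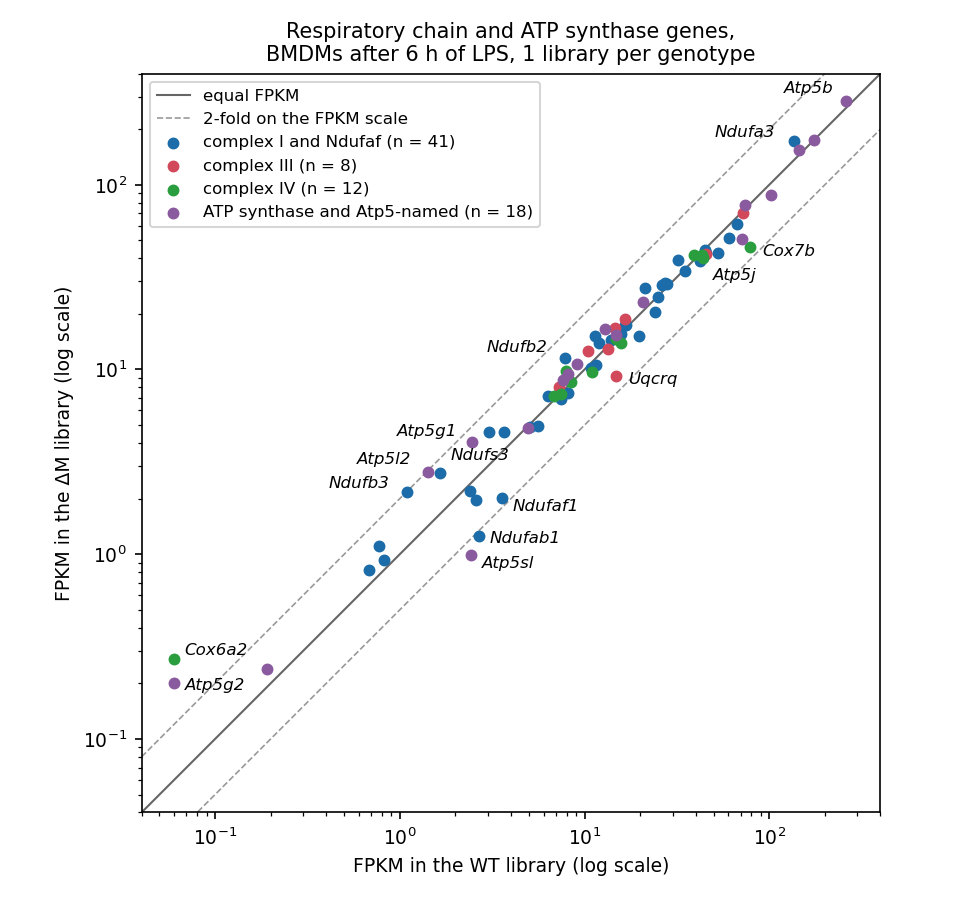
FPKM in the WT library (x axis, log scale) against FPKM in the ΔM library (y axis, log scale), 1 point per gene, coloured by complex, for the 79 genes above 0 in both libraries. The solid line marks equal values and the dashed lines a 2-fold difference without a pseudocount; most points lie close to the solid line from *Atp5s* at 0.19 FPKM to *Atp5b* at 260.5 FPKM in WT.

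A smaller step, a log2 ratio of at least 0.32 in either direction, was passed by 17 of the 73 genes. Of these, 10 were higher in ΔM, 13.7% of the tested members, compared with 21.2% of all genes and 14.2% of protein-coding genes. Another 7 were lower in ΔM, 9.59% of the members, compared with 15.5% of all genes and 14.5% of protein-coding genes. The remaining 56 genes stayed within this step. Against protein-coding genes, the shares of members past this step were near or below the background in each direction, and so they set no direction for the group. The middle of the members' log2 ratios was also narrow, with quartiles at -0.12 and 0.18, against -0.19 and 0.18 for protein-coding genes. In bands of level chosen after the values were seen, the step was passed by 61.5% of 13 members between 1 and 5 FPKM, 15.6% of 32 between 5 and 20 FPKM and 14.3% of 28 above that. The same shares of protein-coding genes were 32.9%, 29.6% and 19.0%.

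Counting error was estimated from the depth as approximate 95% Poisson intervals, with the fragments of a gene computed from the median length of its annotated transcripts. The intervals of the libraries did not overlap for 13 of the 73 members (17.8%), compared with 37.1% of protein-coding genes. Of these 13 genes, 6 were higher and 7 lower in ΔM. Of the 17 genes past the smaller step, 8 had separate intervals, 3 of the 10 higher genes and 5 of the 7 lower ones. For the other 9 genes the intervals overlapped, which does not by itself show that the levels were alike. These calls depend on the transcript length, which the deposited values do not give. With the shortest annotated transcript the intervals were apart for 5 members (6.85%) and 20.1% of protein-coding genes, and with the longest for 20 members (27.4%) and 49.7%. These shares are not matched for fragments. In WT, members had a median of 243 fragments and protein-coding genes 328 at the median length. The medians were 182 and 140 with the shortest transcript, and 410 and 647 with the longest. The part of fragment number in these shares was not tested. The intervals of *Cox7b*, *Atp5j*, *Ndufa3*, *Ndufa2* and *Atp5g3* were apart at all 3 lengths, and those of 53 members overlapped at all 3. For 15 members the call changed with the length, among them *Uqcrq*, *Ndufaf1*, *Atp5sl*, *Ndufb2*, *Ndufb10*, *Atp5b*, *Ndufs3*, *Ndufa5*, *Ndufab1* and *Atp5g1*. Intervals and fragments given for single genes below are those for the median length.

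Complex I oxidises NADH, and its 7 nuclear core subunits hold the flavin and the iron-sulphur clusters that carry the electrons. *Ndufs7*, which holds the last cluster before ubiquinone, had the highest WT level of the core genes, 45.5 FPKM, and was at 42.9 FPKM in ΔM. *Ndufv1*, which binds NADH and the flavin, was next, at 45.1 FPKM in WT against 44.5 in ΔM. Neither differed by the smaller step, and their counting intervals overlapped. *Ndufs3*, another core subunit of the arm in the matrix, had the lowest level of the group. It had 1.65 FPKM in WT against 2.76 in ΔM, a log2 ratio of 0.50. This ratio was among the 5 highest, and its intervals overlapped, though not with the longest transcript. A copy at chr11:58206199-58207074 covers 83.7% of its mRNA at 98.7% identity, and 27.5% of its 100-nt windows occur elsewhere, so its level is uncertain.

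The 29 accessory subunits surround this core and are needed for its assembly and stability. With 27 tested, their median was 13.9 FPKM in WT against 15.1 in ΔM. *Ndufa3*, a small membrane subunit, had by far the highest level, 135 FPKM in WT against 172 in ΔM. Its log2 ratio was 0.35 and its intervals, 126 to 145 and 161 to 184 FPKM, did not overlap. *Ndufb4*, a membrane-arm subunit, was lowest in WT, at 0.77 FPKM, and was at 1.11 FPKM in ΔM. The accessory genes thus spanned levels from under 1 to over 100 FPKM, although their proteins occur together in the assembled complex. *Ndufa11*, which stabilises the membrane arm, was the only accessory gene under 1 FPKM in both libraries, at 0.82 FPKM in WT against 0.93 in ΔM.

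Among accessory genes, 6 of 27 were higher (22.2%) and 2 lower (7.41%) in ΔM by the smaller step, compared with 14.2% and 14.5% of protein-coding genes and 21.2% and 15.5% of all genes. *Ndufb3*, a membrane-arm subunit, had 1.10 FPKM in WT against 2.17 in ΔM, a log2 ratio of 0.59 with overlapping intervals. *Ndufb2*, of the same arm, had 7.86 FPKM in WT against 11.5 in ΔM, a log2 ratio of 0.50. Its intervals were apart by a small margin, 6.45 to 9.49 and 9.68 to 13.6 FPKM, and overlapped with the shortest transcript. Its exons overlap those of *Adck2* on the same strand over 145 nt and those of *Braf* on the opposite strand over 146 nt, so their reads cannot be told apart there. *Ndufb10*, a subunit facing the intermembrane space, had 21.2 FPKM in WT against 27.7 in ΔM, a log2 ratio of 0.37 with intervals that were separate except with the shortest transcript. *Ndufa6*, *Ndufs5* and *Ndufa3* made up the other higher genes, with log2 ratios of 0.38, 0.47 and 0.35. The lower accessory genes were *Ndufab1* and *Ndufa5*. *Ndufab1*, the mitochondrial acyl carrier protein that also serves fatty acid and lipoic acid synthesis, had 2.70 FPKM in WT against 1.3 in ΔM. Its log2 ratio of -0.72 rested on about 30.1 and 12.4 fragments at a length of 502 nt, with overlapping intervals. With its longest transcript of 3479 nt it rested on about 324 and 133, and the intervals were apart. *Ndufa5*, of the matrix arm, was at 19.6 and 15.2 FPKM, a log2 ratio of -0.35, with intervals that overlapped except with the longest transcript.

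*Ndufa4*, named for complex I but now placed in complex IV, had 16.8 FPKM in WT against 17.5 in ΔM. Its relative *Ndufa4l2*, known as a gene induced by low oxygen, was listed at 0 in both libraries. Proteins of the Ndufaf group are not part of the mature complex but help to build it. Of the 4 in the table, *Ndufaf3* was the highest in WT, at 5.60 FPKM, and at 4.92 FPKM in ΔM. *Ndufaf4* was under 1 FPKM in both, at 0.68 and 0.82 FPKM. *Ndufaf1*, a factor for the membrane arm, had 3.58 FPKM in WT against 2.01 in ΔM. This log2 ratio of -0.61 was among the 5 lowest, and its intervals, 3.02 to 4.21 and 1.57 to 2.53 FPKM, were separate except with the shortest transcript. *Ndufaf2* was at 2.59 and 1.96 FPKM, so that the 3 tested factors had log2 ratios from -0.61 to -0.16.

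Complex III passes electrons from ubiquinol to cytochrome c. Its core proteins *Uqcrc2* and *Uqcrc1* were at 72.1 and 45.4 FPKM in WT and at 70.4 and 42.0 FPKM in ΔM. The Rieske iron-sulphur protein *Uqcrfs1*, which is one of the redox centres, had a lower level, 13.4 FPKM in WT against 12.9 in ΔM. All 3 stayed within the smaller step. The 5 small subunits lay between 7.31 FPKM for *Uqcrb* and 16.5 FPKM for *Uqcr10* in WT, and between 8.01 FPKM for *Uqcrb* and 18.8 FPKM for *Uqcr10* in ΔM. Of these, *Uqcr10*, *Uqcr11*, *Uqcrb* and the hinge protein *Uqcrh* had log2 ratios from 0.12 to 0.25. *Uqcrq*, a small membrane subunit near the ubiquinone site (chr11:53241424-53244333, minus strand, mm9), stood apart from them. It was at 14.8 FPKM in WT, with an interval of 12.4 to 17.5 FPKM, and at 9.21 FPKM in ΔM, with an interval of 7.27 to 11.5 FPKM. Its log2 ratio was -0.63, the only one of complex III past the smaller step, and with its shortest transcript the intervals overlapped.

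In complex IV, which reduces oxygen to water, the nuclear subunits surround a catalytic core made in the mitochondrion. The 9 ubiquitous isoforms had a median of 15.8 FPKM in WT against 14.7 in ΔM. *Cox7b*, a small subunit needed for assembly (chrX:103211039-103217789, plus strand, mm9), was the highest of them in WT, at 78.3 FPKM, and was at 45.8 FPKM in ΔM. The intervals were 73.4 to 83.5 FPKM and 41.8 to 50.1 FPKM, and the log2 ratio was -0.76. *Cox7b* thus had the largest difference in FPKM among the lower genes. No gene with overlapping exons was found for it, nor a copy of its searched transcript of 1001 nt. Its median transcript length is 526 nt, and a copy had to cover 50% of the searched one. A copy of a shorter transcript could thus be missed. After *Cox7b*, *Cox8a* was at 43.9 and 39.9 FPKM and *Cox6a1* at 43.4 and 41.5 FPKM. *Cox7c* had the lowest WT level, 7.50 FPKM, and 7.36 FPKM in ΔM, with 68.3% of its 100-nt windows present elsewhere in the genome. Each of the 8 isoforms other than *Cox7b* stayed within the smaller step.

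Some complex IV subunits have a second isoform with restricted expression. The muscle isoforms *Cox6a2* and *Cox8b* were at 0.06 and 0 FPKM in WT, and at 0.27 and 0 FPKM in ΔM. The testis isoforms *Cox7b2* and *Cox8c* were listed at 0 in both libraries, and *Cox6b2* was at 0.46 FPKM in WT and listed at 0 in ΔM. Their ubiquitous partners *Cox6a1*, *Cox8a*, *Cox7b* and *Cox6b1* were all above 39 FPKM in both, so that the restricted isoforms made up at most 1.16% of a pair. *Cox7a1*, the heart and muscle isoform of subunit 7a, was the exception. It had 8.40 FPKM in WT against 8.57 in ΔM, from about 51.3 and 46.4 fragments. Its ubiquitous partner *Cox7a2* had 14.9 FPKM in WT against 14.7 in ΔM. *Cox7a1* therefore held 36.1% of the FPKM of this pair in WT and 36.8% in ΔM, a similar share in both genotypes. The muscle markers *Myh6* and *Myh7* were at no more than 0.04 FPKM. *Cox7a2l*, known as a factor of supercomplexes, was at 6.86 and 7.20 FPKM. Its function in these mice was not tested.

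ATP synthase turns the proton gradient into ATP, and the F1 head that makes ATP contained the gene with the highest level of all. *Atp5b*, the catalytic β subunit, had 260.5 FPKM in WT against 283 in ΔM. Its intervals, 254 to 268 and 275 to 290.3 FPKM, were separate except with the shortest transcript, while the log2 ratio was 0.12. *Atp5a1*, the α subunit, was at 176 and 174 FPKM, and *Atp5e*, the ε subunit, at 145 and 154 FPKM. The γ subunit *Atp5c1*, which forms the central shaft, was the lowest F1 gene, at 9.12 and 10.7 FPKM, and *Atp5d*, the δ subunit, was at 20.8 and 23.1 FPKM. The genes of F1 therefore differed widely in level, and none of the 5 passed the smaller step.

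The peripheral stalk and membrane subunits had lower levels, with a median over 7 genes of 12.9 FPKM in WT against 15.3 in ΔM. *Atp5f1*, the b subunit of the stalk, was highest in WT, at 74.2 FPKM, and was at 77.7 FPKM in ΔM. *Atp5l*, subunit g, was lowest, at 4.95 and 4.81 FPKM. *Atp5j*, coupling factor 6 of the stalk (chr16:84828111-84835870, minus strand, mm9), had 71.5 FPKM in WT against 51.0 in ΔM. With a log2 ratio of -0.48 and intervals of 66.7 to 76.5 and 46.8 to 55.5 FPKM, it was the lower gene of this group. *Atp5k*, subunit e, was the higher one, at 12.9 and 16.5 FPKM, a log2 ratio of 0.33 with overlapping intervals.

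The rotor ring of ATP synthase is built from subunit c, and 3 nuclear genes encode the same mature protein behind different import signals. *Atp5g3* made up nearly all of their summed FPKM as listed, a share that leaves out what could not be counted for *Atp5g2*. It had 102 FPKM in WT against 88.4 in ΔM, 97.6% and 95.4% of the 3 genes. Its intervals, 98.1 to 107 and 84.1 to 92.8 FPKM, were apart, with a log2 ratio of -0.21. *Atp5g1* had 2.46 FPKM in WT against 4.06 in ΔM, a log2 ratio of 0.55, which was among the 5 highest. Its intervals, 1.79 to 3.30 and 3.13 to 5.17 FPKM at a length of 691 nt, overlapped, and with its longest transcript of 4715 nt they were apart. The sum of the listed FPKMs of the 3 genes was 105 FPKM in WT against 92.6 in ΔM.

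*Atp5g2* had 0.06 FPKM in WT against 0.20 in ΔM, about 1 and 3 fragments. This value cannot be read as a level of its mRNA. The annotated mRNA of 647 nt (gene at chr15:102493299-102501478, minus strand, mm9) had a copy at chr17:5816054-5816700 with 100% identity over its whole length, and 100% of its 100-nt windows occurred elsewhere. The authors kept uniquely mapped reads, and no 100-nt window of this transcript is unique. The coding sequences of the 3 genes are not the same, as their last 75 codons differ at 34 of 225 bases between *Atp5g1* and *Atp5g2*, at 45 between *Atp5g1* and *Atp5g3*, and at 48 between *Atp5g2* and *Atp5g3*. The first 60 bases of this stretch, in coding orientation from the mm9 transcripts, are shown because they tell the genes apart, with bases that differ from *Atp5g3* in capitals.
Atp5g3: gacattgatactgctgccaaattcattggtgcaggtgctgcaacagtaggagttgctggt
Atp5g1: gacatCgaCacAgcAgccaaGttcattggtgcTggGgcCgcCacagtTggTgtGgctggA
Atp5g2: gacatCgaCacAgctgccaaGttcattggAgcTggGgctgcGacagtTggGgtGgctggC
In these 60 bases *Atp5g1* has 13 differences and *Atp5g2* has 12.

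Of the genes with Atp5 names, 3 are not subunits. *Atp5s*, a coupling factor of the synthase, was at 0.19 and 0.24 FPKM. *Atp5sl*, now named *Dmac2* and known as an assembly factor of complex I, had 2.44 FPKM in WT against 0.99 in ΔM. Its log2 ratio of -0.79 was the lowest of all members, and its intervals, 1.72 to 3.35 and 0.53 to 1.68 FPKM, were narrowly apart and overlapped with the shortest transcript. *Atp5l2*, annotated as a pseudogene of subunit g, had the highest ratio, 0.65. It had 1.42 FPKM in WT against 2.79 in ΔM, from about 7.93 and 13.8 fragments with overlapping intervals. On this scale, the extremes at both ends of the ranking were therefore genes outside the assembled complexes. This depends on the pseudocount. With 10 FPKM added in place of 1, *Atp5sl* was at -0.18 and *Cox7b* at -0.66. *Atp5l2* was then at 0.16 and *Ndufb2* at 0.27.

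**Figure D2:**
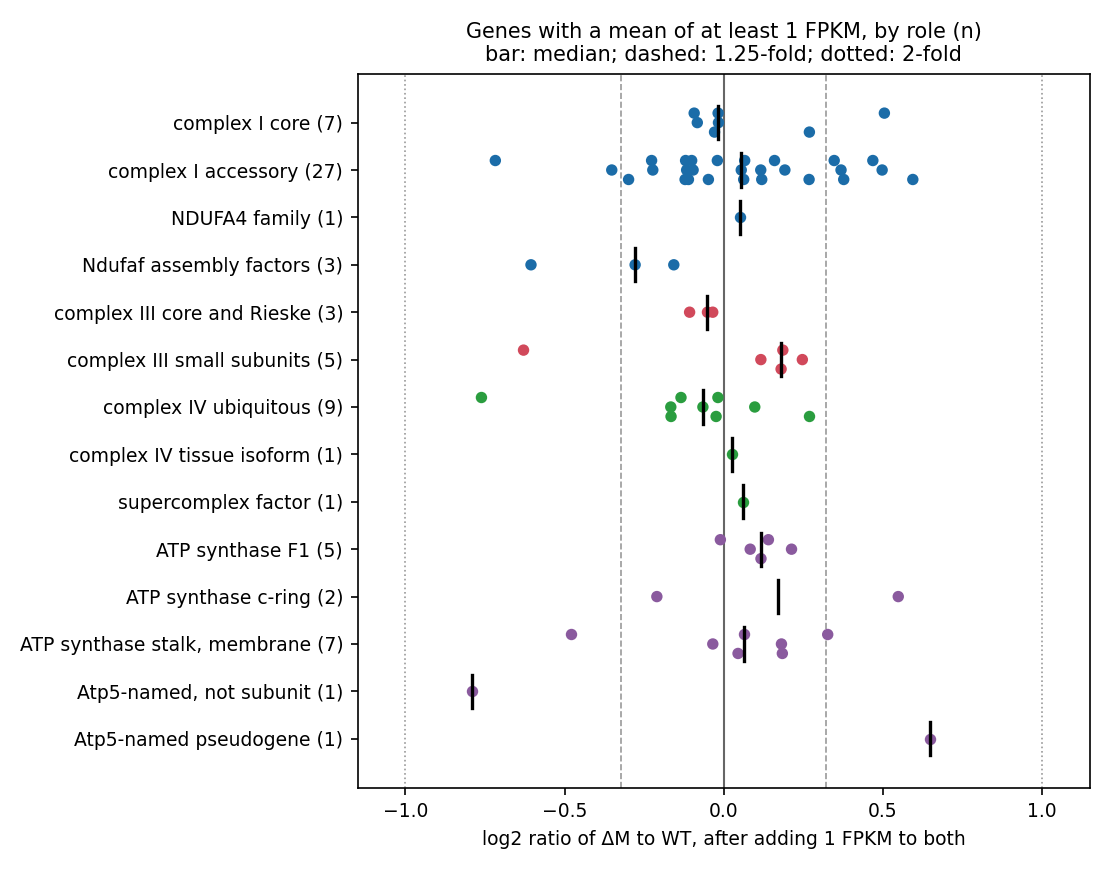
Log2 ratio of ΔM to WT after adding 1 FPKM (x axis) for the 73 genes that averaged 1 FPKM or more, 1 point per gene, grouped by role (y axis, number of genes in brackets) and coloured by complex. Black bars are medians, dashed lines mark the smaller step of 0.32 and dotted lines 2-fold; the points run from -0.79 for *Atp5sl* to 0.65 for *Atp5l2*, and none reaches the dotted lines.

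By complex, the medians of the tested genes stayed close to 0. The log2 ratio was -0.02 over 38 genes named for complex I, 0.04 over the 8 of complex III, -0.02 over 11 of complex IV and 0.10 over 16 named for ATP synthase. Summed FPKM was 859 in WT and 884 in ΔM for complex I, and 195 and 191 for complex III. It was 278 and 241 for complex IV, where *Cox7b* accounted for most of the difference, and 915 and 925 for ATP synthase. At the level of complexes, the genotypes were thus near each other.

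Many respiratory genes have processed copies in the genome, which matters because only uniquely mapped reads entered the values. A copy with at least 90% identity over at least 50% of the mRNA was found for 26 of the 83 protein-coding members (31.3%). The search used 1 transcript per gene, the one with the longest coding part. Copies of much shorter transcripts could thus be missed. *Atp5g1* was searched at 4715 nt with a median length of 691 nt, *Ndufb2* at 4371 with 572 nt and *Ndufab1* at 3479 with 502 nt. Among genes that averaged 1 FPKM or more, the share was 34.7% of 72 members and 11.1% of 8074 protein-coding genes. These shares are not matched for length, as the median mRNA was 849.5 nt for members and 2684 nt for protein-coding genes, and a copy had to cover a set share of it. Over all 83 protein-coding members, the median WT level was 8.65 FPKM with a copy and 14.8 FPKM without one. The members without a copy included some listed at 0. Among members that averaged 1 FPKM or more, the medians were 9.12 FPKM with a copy and 19.6 FPKM without one. The 11 members with a copy but no exact window inside it were all at 1.10 FPKM or more in WT. Their median of 14.65 FPKM lay between 9.12 and 19.6 FPKM. Windows of 100 nt, the length of a read, were looked up only inside the copies found, not across the genome. Members without a copy therefore count as having none. Exact matches were found for 15 members. In 8 of them at least 20% of the windows occurred elsewhere, and these 8 were at 0.06 to 7.96 FPKM in WT and at 0.20 to 9.80 FPKM in ΔM. They were *Atp5g2* (100%), *Atp5l* (83.5%), *Cox7c* (68.3%), *Ndufs5* (39.4%), *Cox5b* (37.5%), *Cox7a2l* (36.3%), *Ndufs3* (27.5%) and *Uqcrb* (24.5%). *Atp5l* had the most copies, 14, and *Cox7c* had 6. All 8 were thus below the median of the tested members, and the part of lost reads in these levels was not tested. The same windows were lost in both libraries.

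**Figure D3:**
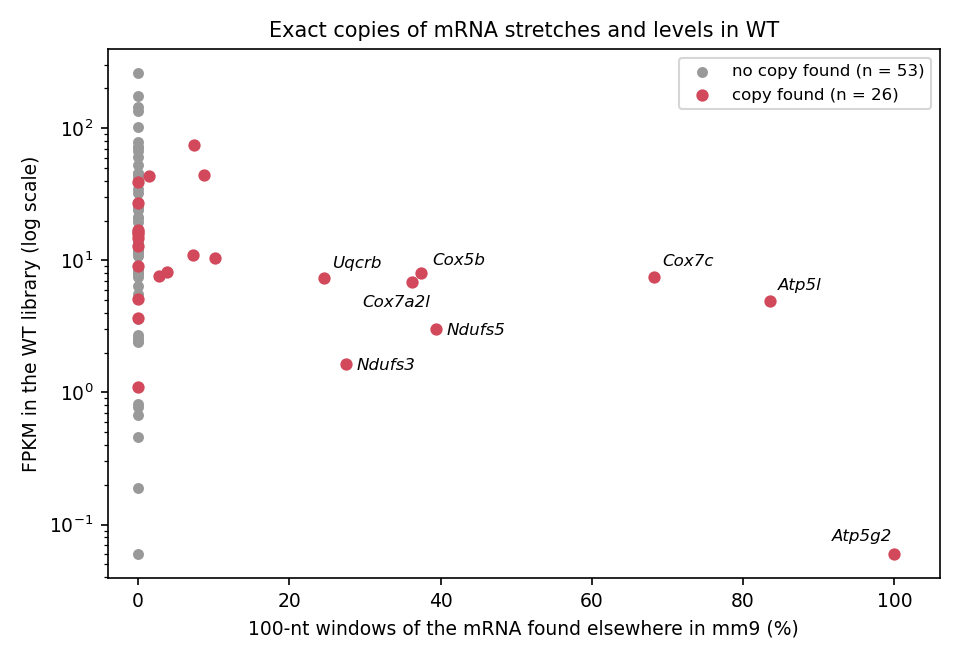
Share of each mRNA's 100-nt windows that occurs in the copies found in mm9 (x axis, %) against FPKM in the WT library (y axis, log scale), 1 point per protein-coding gene above 0, for 26 genes with a copy and 53 without. Windows were looked up only inside copies, so genes without a copy lie at 0% by construction. The 8 named genes at or above 20% all lie at or below 7.96 FPKM, and *Atp5g2* lies at 100% and 0.06 FPKM.

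Overlapping genes are a second limit. Exons of 19 of the 84 genes overlap exons of another annotated gene, in 16 cases a protein-coding one. Whether the counting used strand is not given in the sources used here, so the reads in these stretches cannot be assigned. *Atp5j* shares 397 nt with *Gabpa* on the opposite strand. *Gabpa* encodes the DNA-binding subunit of GABP, an ETS factor known to regulate respiratory genes, and had 7.05 FPKM in WT against 3.97 in ΔM. Both neighbours were lower in ΔM, with log2 ratios of -0.48 and -0.70, and the part of shared reads in this was not tested.

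Related genes, from lists chosen with earlier results of these data known, also stayed under 2-fold. All 4 genes of complex II, which feeds electrons from succinate, stayed within the smaller step. *Sdhc*, a membrane anchor, had 142 FPKM in WT against 122 in ΔM, and *Sdhb*, the iron-sulphur subunit, was at 50.2 and 51.7 FPKM. Soluble cytochrome c, *Cycs*, was at 1.53 and 0.73 FPKM, a log2 ratio of -0.55, while *Cyc1*, the cytochrome of complex III, was at 22.4 and 19.4 FPKM. Copies were described for members only. The part of lost reads in the levels of these related genes, such as the low one of *Cycs*, was therefore not tested. Among 8 tested assembly factors of complex IV, 2 were higher and 1 lower by the smaller step. *Surf1*, which acts on the catalytic core, had 22.6 FPKM in WT against 44.7 in ΔM. This log2 ratio of 0.95 was the highest of the related genes, just under 2-fold. *Cox15*, which makes the haem of the enzyme, was the lower one, at 10.5 and 7.34 FPKM. The ATP synthase inhibitor *Atpif1* was at 30.2 and 28.1 FPKM. Of the related genes that averaged 1 FPKM or more, 4 of 31 were higher (12.9%) and 7 lower (22.6%) by the smaller step, compared with 14.2% and 14.5% of protein-coding genes. The count past 2-fold was 0 of 31, compared with 2.51%.

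Of 11 transcription regulators of respiratory genes in the list, 8 were tested, with a median log2 ratio of -0.34 beside -0.0015 for protein-coding genes. By the smaller step 4 of the 8 were lower and 0 higher, where 14.5% of protein-coding genes were lower and 14.2% higher. The list was chosen with earlier results of these data known, so these shares are a description and no test. *Gabpa* had the lowest ratio. Its partner *Gabpb1* had 9.18 FPKM in WT against 5.36 in ΔM, and *Tfam*, which packages mitochondrial DNA and is needed for its transcription, was at 5.99 and 3.36 FPKM. Both had a log2 ratio of -0.68, and *Yy1*, a zinc finger factor, was at 11.8 and 8.44 FPKM, a log2 ratio of -0.44. *Nrf1* itself was at 12.7 and 11.8 FPKM, within the smaller step. The coactivator *Ppargc1a* was listed at 0 in both libraries and *Ppargc1b* was at 0.16 and 0.12 FPKM. The members beside them had a median log2 ratio of -0.01. The 13 subunits encoded in mitochondrial DNA, among them *mt-Co1* and *mt-Cytb*, were all listed at 0 in both libraries. Since every macrophage transcribes them, such a 0 is a listed value and no measure of their RNA.

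Promoters of respiratory genes are known for motifs of NRF1, of ETS factors such as GABP and of YY1. RefSeq windows (GRCm38.p6, 250 bases before to 50 after the start, the first listed per gene) were found for 71 of the 84 genes, and letters were searched on both strands. The NRF1 motif, GCGCA followed by its reverse complement, occurred in 6 of 71 windows (8.45%), compared with 0.977% of all 27025 promoters. The ETS letters CCGGAAG were in 19.7% and in 9.12%, and the YY1 letters AAGATGGC in 14.1% and in 2.88%. Of the 71 windows, 28 held at least 1 of these motifs, as did 12.3% of all promoters. The members' windows were also richer in G and C, with a median of 57.3% against 52.7%. CCAAT was in 45.1% of the members' windows and 37.9% of all, and TATAAA in 9.86% and 14.2%. The windows of 2 members, *Atp5k* and *Cox6a1*, held both the NRF1 and the ETS letters, as did 48 of all promoters (0.178%). Their windows matched mm9 at chr5:108863369-108863668 and chr5:115798918-115799217, both on the minus strand, and are shown with these motifs in capitals.
Atp5k: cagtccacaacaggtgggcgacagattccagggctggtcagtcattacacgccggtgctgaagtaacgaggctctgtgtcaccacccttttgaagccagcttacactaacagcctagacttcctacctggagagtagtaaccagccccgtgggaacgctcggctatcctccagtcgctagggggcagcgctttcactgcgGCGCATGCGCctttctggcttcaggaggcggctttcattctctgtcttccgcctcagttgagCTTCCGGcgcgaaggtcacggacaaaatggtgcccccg
Cox6a1: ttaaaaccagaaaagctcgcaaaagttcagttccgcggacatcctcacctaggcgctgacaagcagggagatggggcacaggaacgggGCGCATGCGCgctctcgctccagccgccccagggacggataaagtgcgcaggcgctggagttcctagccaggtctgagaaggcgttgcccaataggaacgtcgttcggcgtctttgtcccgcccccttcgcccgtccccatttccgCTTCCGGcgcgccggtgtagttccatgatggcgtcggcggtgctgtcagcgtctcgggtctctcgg
*Atp5k* was at 12.9 and 16.5 FPKM and *Cox6a1* at 43.4 and 41.5 FPKM, and for both genes the counting intervals of the libraries overlapped.

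The first RefSeq window of *Atp5j* held 0 of the NRF1, ETS and YY1 motifs, and 0 members held all 3 in their first windows. A further window of *Atp5j*, chosen after the values were seen, is shared with its neighbour. It matched mm9 at chr16:84835172-84835471 on the minus strand, and the *Gabpa* window at chr16:84835119-84835418 on the plus strand, so that 247 bases belong to both. In the annotation of mm9, all 300 bases lie in *Atp5j* exons and 200 of them in *Gabpa* exons. This window held the inner NRF1 letters GCATGC, the YY1 letters and the ETS letters once each, a combination found in 9 of all promoters. GCATGC alone, a looser match than the whole NRF1 motif, was in 7.94% of all promoters. The sites are shown on the *Atp5j* strand with 10 bases on either side and the motif in capitals, because the stretch belongs to the windows of both genes.
GCATGC at chr16:84835352-84835377: gccagaatacGCATGCgtacagtgca
YY1 letters at chr16:84835292-84835319: aagtgtaggaAAGATGGCggagtcttag
ETS letters at chr16:84835266-84835292: gctgagggacCCGGAAGcacttaccct
A match of letters is a description of the sequence and no measure of binding.

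TTP recognises AU-rich letters such as UAUUUAU, and few of these mRNAs carried them. The 3′ UTRs of the 83 protein-coding members were short, with a median of 153 nt, compared with 853 nt over protein-coding genes that averaged 1 FPKM or more. TATTTAT, as written in DNA, was in 4 of 83 (4.82%), compared with 24.9% of protein-coding genes, and the shorter ATTTA in 41.0% and 63.3%. The gap was smaller among UTRs of like length. Among 3′ UTRs of 97 to 340 nt, the middle range of the members, ATTTA was in 29.3% of members and 28.0% of protein-coding genes, and TATTTAT in 2.44% and 5.82%. The genes with TATTTAT were *Cox7a2*, *Ndufs4*, *Ndufv2* with 3 sites and *Uqcrc2*. The sites are shown as read from the mm9 transcripts with 10 bases on either side and the motif in capitals, the last from *Ndufv2* overlapping the one before.
Cox7a2, chr9:79603245-79603271, minus strand: tggggatcaaTATTTATtgatgtgtat
Ndufs4, chr13:115078901-115078927, minus strand: agctgtgcacTATTTATagtccatgga
Ndufv2, chr17:66428250-66428276, minus strand: gtaaaagcatTATTTATaaaaagaaaa
Ndufv2, chr17:66428204-66428230, minus strand: tctttagctaTATTTATttattttgat
Ndufv2, chr17:66428200-66428226, minus strand: tagctatattTATTTATtttgatacag
Uqcrc2, chr7:127802814-127802840, plus strand: agtcagcaagTATTTATtaaatgcttt
None of the 4 genes passed the smaller step in either direction, where 14.2% of protein-coding genes were higher and 14.5% lower. A count over 4 genes is too small to set beside these shares. The intervals of all 4 overlapped at all 3 transcript lengths. *Cox7a2* had 14.9 FPKM in WT against 14.7 in ΔM, and *Ndufs4*, an accessory subunit of complex I, was at 8.15 and 7.44 FPKM. *Ndufv2*, a core subunit of complex I, was at 34.8 and 34.1 FPKM, and *Uqcrc2* at 72.1 and 70.4 FPKM. Their log2 ratios lay between -0.12 and -0.02.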

How the data were processed

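The deposited values are FPKM, calculated by the authors with Cufflinks on Ensembl exons from uniquely mapped paired-end reads of rRNA-depleted RNA on mm9, with 1 value per gene and library. No scaling was added. The log2 ratio is log2((ΔM + 1)/(WT + 1)), which understates changes of low genes, and ratios were described for genes that averaged 1 FPKM or more. Depth and mean fragment length were estimated from the steps of low FPKMs of single-transcript genes, and gave approximate 95% Poisson intervals that cover counting error only and use the median length of a gene's annotated transcripts. These steps and the intervals were tested on simulated data. Gene types, lengths, exons and transcripts came from GENCODE M1 (NCBIM37, which is mm9). Copies were searched with minimap2 2.31, and values were computed in Python 3.11.15 with pandas 2.3.3, numpy 2.4.6, scipy 1.17.1 and matplotlib 3.10.9. Genes named are the highest and lowest in WT per role, the 5 highest and the 5 lowest ratios, members under 1 FPKM, isoform partners, c-ring genes, the extremes of related lists, *Zfp36* and markers; other names were chosen after their values were seen. Members and lists were chosen with earlier results of these data known. Alternatives covered the pseudocount, scaling, the FPKM minimum, the genes included and the transcript length behind the intervals. A member and a marker gene are not reported here individually.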

Additional observations from a re-analysis of the deposited data

How the results depend on the processing

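No paired analysis was possible because each genotype had 1 library, and neither could be left out. Over 9 alternatives the members' median log2 ratio stayed between -0.04 and 0.04. With a pseudocount of 0.1 FPKM, 2 members differed 2-fold, *Atp5sl* and *Ndufab1*, in place of 0. With a pseudocount of 10 FPKM, 1 member was higher and 3 were lower by 0.32 on the log2 scale, since it shrinks the ratios of low genes. Among genes that averaged 10 FPKM or more, 4 of 47 were higher and 4 lower, and the median WT level was 26.2 FPKM, by construction. Without members that have a copy or share exons with another protein-coding gene, an alternative chosen after seeing the data, 4 of 39 genes were higher and 6 lower. Counting intervals were apart for 5 members with the shortest and 20 with the longest annotated transcript in place of 13 with the median length, alternatives also chosen after seeing the data, because fragments scale with length. Of 40 log2 ratios of the 10 members with the highest and lowest ratios under alternatives, 37 moved by less than their counting half-width and 3 moved more, all 3 with a pseudocount of 10 FPKM. These alternatives could hardly turn a sign, so they say little of stability. Depth limits genes with few fragments most, such as *Atp5l2* and *Ndufb3*.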
